A study of Drosophila melanogaster with 12 samples.

Results

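Salivary glands and wing imaginal discs of double mutant late (L3) Drosophila melanogaster larvae were compared with each other, to ask how far the expression difference between these organs is kept when both carry the same mutations. The comparison used 6 of the 12 libraries of the study, chosen by their labels alone: 3 of mutant salivary glands and 3 of mutant wing discs. The mutant larvae carried the alleles labelled egg_1473 and Su(var)3-9_06. The gene egg encodes SetDB1, and both genes encode histone H3 lysine 9 methyltransferases. The other 6 libraries, 3 of glands and 3 of wing discs from OregonR larvae, served as the wild-type setting of the same tissue difference. Mutant and OregonR larvae may also differ in genetic background. The alleles and the background cannot be told apart in any comparison of genotypes here. All 4 groups were of stage L3, from flies kept at 25°C, with RNA from 25 glands or 25 pairs of discs per library. The protocol text speaks of technical replicates and names no separate animals or cultures for the libraries, so the p-values below measure the spread between these libraries, which may be technical. Gland RNA went through 2 rounds of oligo-dT enrichment and disc RNA through 1, so the tissue and the number of rounds cannot be told apart in any comparison here.

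The salivary gland of the late larva is a secretory organ of large polytene cells, which replicate their DNA without dividing and fill with glue proteins that fix the puparium to its substrate. The wing disc is a diploid, dividing epithelium with attached muscle precursors, patterned by Hedgehog, Dpp and Wingless signalling and by selector genes such as vestigial. Methylation of H3 lysine 9 is bound by HP1 and marks silent heterochromatin, which holds most transposable elements. SetDB1 is best known for acting on chromosome 4 and on transposons in the ovary, and Su(var)3-9 for acting on pericentric heterochromatin.

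Transcripts of egg (2R:24775534-24779901, minus strand, in the BDGP6 build) stood at 13.5, 12.4 and 11.1 normalized CPM in the mutant glands. They stood at 84.3, 82.7 and 77.0 CPM in the mutant discs, at 7.50, 15.9 and 14.0 CPM in control glands and at 86.4, 80.9 and 81.0 CPM in control discs. CPM here means counts per 1000000, with library sizes scaled by trimmed-mean (TMM) factors over all 12 libraries. The gland libraries were lower than the disc libraries in both genotypes. Levels of egg in mutants and controls overlapped in each organ, so its level does not check the genotype label.

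Su(var)3-9 (3R, minus strand, sharing 14.8% of its exon bases with eIF2gamma) had 122, 104.8 and 180 CPM in the libraries labelled mutant glands and 2.95, 2.41 and 1.98 CPM in the mutant discs. It had 4.44, 3.85 and 3.43 CPM in control glands and 15.0, 15.0 and 15.7 CPM in control discs. The mutant discs were the lowest and the mutant glands the highest of the groups, and no groups overlapped. The level in the libraries labelled mutant glands thus went against a loss of transcript. The tissue difference was 5.81 ± 0.28 on the log2 scale in mutants (SE, adjusted p = 4.0e-07) and -1.93 in controls (adjusted p = 2.1e-05). Directions below that rest on the genotype of the gland libraries rest on that label.

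The 6 libraries of the mutant comparison held between 23337165 and 57591665 gene counts, the glands more than the discs. Between 44.3 and 46.0% of the counts in mutant gland libraries, and 10.9 to 12.3% in mutant disc libraries, fell on the top 20 genes of each library. The spread between libraries was larger in glands, with a biological coefficient of variation of 0.264 in mutant glands and 0.116 in mutant discs. Each organ's libraries also held some counts of the other organ's strongest genes. Of 2221 genes with at least 10000 counts in the 6 gland libraries together, 195 had fewer than 1 disc count per 64 gland counts, and 3 of these had disc counts below 0.5%. For those 195 genes, whose low share is set by this choice, each disc library held a median of 1.02 to 1.83 counts per 1000 in all glands together. For 58 disc genes chosen in the same way, each gland library held a median of 1.17 to 2.72 counts per 1000 in all discs together. These ranges are called the shared level below, and its part in any result was not tested. In whole organs, fewer cells of a type and less RNA per cell cannot be told apart.

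Most genes differed between the mutant organs. Of 9847 genes tested with edgeR's quasi-likelihood test, 8151 passed an adjusted p of 0.05 (82.8%), 3995 of them higher in mutant glands (40.6%) and 4156 lower (42.2%). These shares of all genes are the background for counts of list members in mutants below, where TMM factors are used. In 8433 of the genes tested (85.6%) the 3 gland and the 3 disc libraries did not overlap in CPM. A difference of at least 1 on the log2 scale was reached by 6341 of the genes that passed. In controls 7544 of 9402 genes passed (80.2%), with 3684 higher in control glands (39.2%) and 3860 lower (41.1%). The split into higher and lower rests on the scaling: with libraries scaled by total counts alone, a setting chosen after seeing the data, 1897 genes were higher in mutant glands and 6775 lower. That scaling moved the median of all genes by -1.51 on the log2 scale, from a median of -0.04 under TMM factors.

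**Figure D1:**
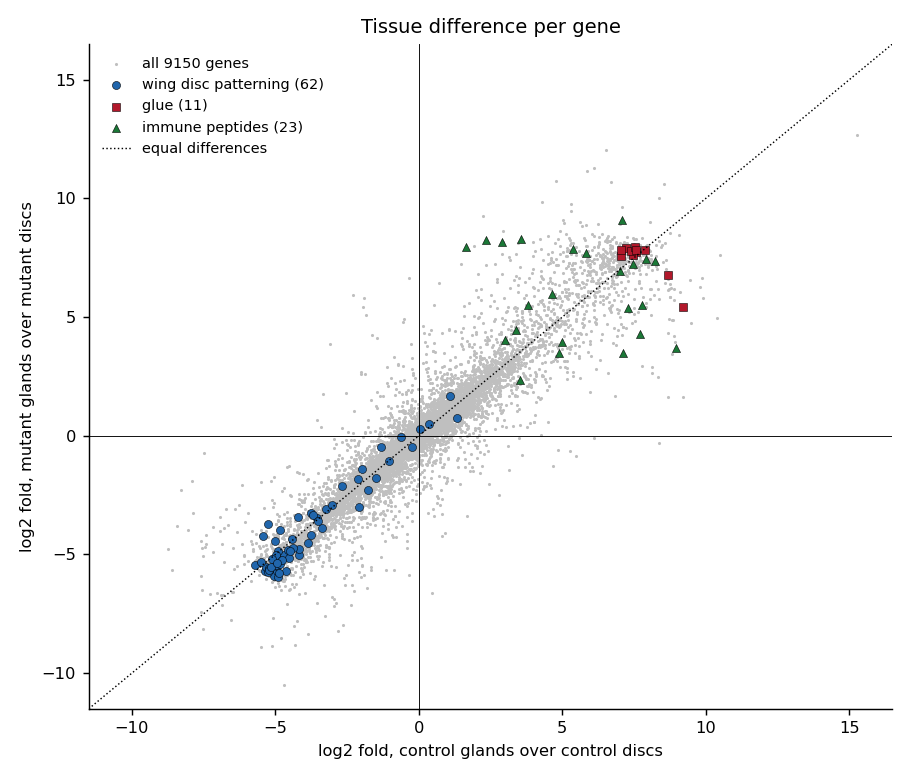
Tissue difference of each gene, as log2 fold of mutant glands over mutant discs (vertical axis) against log2 fold of control glands over control discs (horizontal axis), for the 9150 genes tested in both genotypes. Wing patterning genes lie at the lower left and glue genes at the upper right, most of them close to the dotted line of equal differences, while immune peptide genes scatter widely around it.

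The difference between the organs was similar in mutant and in OregonR larvae. Of 6810 genes past the threshold in both genotypes, 6731 had the same direction and 79 the opposite one. The median size of the difference over the 9150 genes tested in both was 1.49 on the log2 scale in mutants and 1.45 in controls. Across these genes the log2 differences of mutants and controls had a Pearson r of 0.93, given as a description, since genes are not independent replicates. The test of the change itself, the tissue difference in mutants minus that in controls over all 12 libraries, called 1027 of 10185 genes (10.1%), 572 with a more gland-ward difference in mutants (5.62%) and 455 with a more disc-ward one (4.47%). Of these 1027 genes, 704 had their larger change between genotypes in glands and 323 in discs. The same split was not counted over all genes. All 4 groups shared 1 estimate of spread in this test. Taken alone, the biological coefficient of variation was 0.264 in mutant glands, 0.286 in control glands, 0.116 in mutant discs and 0.0776 in control discs. The part of this unequal spread in the split was not tested. The count of 1027 fell to 667, 676 and 662 when mutant disc library 2, control disc library 2 or control disc library 3 was left out.

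Genes that mark an organ in the controls mostly marked the same organ in the mutants. At 8-fold or more in controls, 1212 genes were gland-enriched, and of the 1150 tested in mutants 1132 were again higher in glands. These are 98.4% of those tested and 93.4% of all gland-enriched genes, since 62 did not pass the filter on low counts in mutants. The matching figures for disc-enriched genes were 982 genes, 930 tested and 920 again lower in glands, which is 98.9% of those tested and 93.7% of all. Among all genes tested in mutants 40.6% were higher and 42.2% lower in glands. A difference of 8-fold or more was kept by 994 of the gland-enriched and 828 of the disc-enriched genes. By the test of the change between genotypes, the difference grew in 109 of the 1212 gland-enriched genes and shrank in 101. Among the 982 disc-enriched genes it grew in 40 and shrank in 40. Of all genes 10.1% changed in either direction, but these members were chosen by control values that the test also uses. The gland-enriched genes took 54.6 to 55.4% of all counts in mutant glands and 2.01 to 2.13% in mutant discs. They took 51.9 to 53.4% in control glands and 1.96 to 2.31% in control discs. The disc-enriched genes took 0.227 to 0.240% in mutant glands and 10.1 to 10.9% in mutant discs, against 0.223 to 0.389% in control glands and 11.7 to 11.9% in control discs.

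The exceptions were few and mostly of low level, and they were picked out after their values were seen. The gland-enriched gene that turned to the disc side was mtsh, with 1.74 CPM in mutant glands and 4.82 CPM in mutant discs, against 3.57 CPM in control glands and 0.416 CPM in control discs. The disc-enriched genes that turned to the gland side were CG1971, lncRNA:CR45472 and CG40006. Of these CG40006 was the most abundant, with 9.94 CPM in mutant glands and 0.682 CPM in mutant discs, against 0.758 CPM in control glands and 7.10 CPM in control discs. Among genes that lost a call, bru1, which encodes an RNA-binding repressor of translation known from the ovary, had 4.32 CPM in mutant glands and 4.62 CPM in mutant discs. Its control levels were 3.19 CPM in glands and 0.0474 CPM in discs. The aquaporin-family gene bib had 22.7 CPM in mutant glands and 56.7 CPM in mutant discs, against 3.76 CPM in control glands and 92.3 CPM in control discs, and its mutant difference missed the threshold (adjusted p = 0.051).

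Glue genes stayed on the gland side in the mutants. Sgs3, which encodes a secreted glue protein, had 98372, 97254 and 96127 CPM in mutant glands and 504, 402 and 478 CPM in mutant discs. In controls it had 89420, 96686 and 107570 CPM in glands and 676, 425 and 491 CPM in discs. The organs did not overlap in either genotype, and the mutant glands lay within the range of the control glands. Its difference was 7.73 ± 0.22 in mutants (log2, SE, adjusted p = 6.3e-08), and the change between genotypes was 0.19 (adjusted p = 0.67). All 11 glue genes tested were higher in mutant glands, where 40.6% of all genes were, with a median log2 difference of 7.78 in mutants and 7.53 in controls. In disc libraries the glue genes held 0.906 to 1.75 counts in mutants and 0.686 to 2.27 counts in controls per 1000 counts in all glands together, close to the shared level, so the disc values do not show that the discs express them.

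Scaled by exon length, the highest levels in the mutant glands belonged to glue genes. The scale is counts per kilobase of exon, set to a total of 1000000 per library. Sgs7 reached 204739 ± 22323 on this scale in mutant glands (SD, n = 3). On the same scale and in the same glands Sgs5 reached 125171 ± 4800, Sgs8 99119 ± 11832, Sgs3 46137 ± 822 and Eig71Ee 32325 ± 10843. In mutant discs the highest levels on this scale belonged to the mitochondrial ribosomal RNA mt:lrRNA, at 28365 ± 4892, and to RpL41, eEF1alpha1 and RpL27A, at 7764 to 14848. These are genes of translation.

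One glue gene, ng2, changed its tissue difference between genotypes. The new glue genes ng1 and ng2 are neighbours on the X chromosome. Levels of ng2 (X:3240026-3240571, minus strand) were 49.0, 82.8 and 12.4 CPM in mutant glands and 1.13, 1.33 and 0.858 CPM in mutant discs. They were 453, 836 and 489 CPM in control glands and 1.41, 0.763 and 0.937 CPM in control discs. Its tissue difference was 5.44 ± 0.68 in mutants and 9.19 in controls, and the change of -3.72 passed the threshold (adjusted p = 0.0091). It was -4.36 without mutant gland library 2. For ng1 the mutant glands read 55.2, 101 and 1.36 CPM, so library 3 alone was near the disc level, and the change of -1.89 did not pass (adjusted p = 0.55).

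The transcription factors that set up the gland kept their organ in the mutants. Levels of fkh, a forkhead factor required for gland formation and glue gene expression, were 212, 222 and 185 CPM in mutant glands and 0.938, 0.766 and 0.832 CPM in mutant discs. They were 204, 255 and 258 CPM in control glands and 1.57, 1.10 and 1.27 CPM in control discs. Organs did not overlap, and the change between genotypes was 0.43 (adjusted p = 0.32). The bHLH factor sage, a partner of fkh, averaged 2153 ± 52 CPM in mutant glands and 11.1 ± 0.56 CPM in mutant discs, against 1445 ± 107 CPM in control glands and 11.4 ± 4.3 CPM in control discs (SD, n = 3 each). Its change of 0.61 did not pass (adjusted p = 0.22). The zinc finger gene sens was higher in mutant glands by 4.78 ± 0.19. The homeobox gene hth, at 14.4 CPM in mutant glands and 382 CPM in mutant discs, was lower by 4.72, and trh and exd were lower too. Of 10 gland regulators tested 7 were higher and 3 lower in mutant glands, beside 40.6 and 42.2% of all genes. The counts in controls were the same.

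Hox genes followed the same order in both genotypes. Scr, which specifies the segment that forms the gland, had 8.13, 11.3 and 10.3 CPM in mutant glands and 0.107, 0.219 and 0.416 CPM in mutant discs. It had 7.57, 8.12 and 12.2 CPM in control glands and 0.271, 0.610 and 0.513 CPM in control discs. The organs did not overlap, with a mutant difference of 5.31 ± 0.40 (adjusted p = 4.5e-06). Antp and Ubx, Hox genes of the thorax and abdomen, were lower in mutant glands by 3.12 and 4.18, and 50.1% of the exon bases of Antp are shared with CG46458. Counts for Scr in discs and Ubx in glands were at most 16 per mutant library. None of the 4 Hox genes tested for a change between genotypes passed, too few genes to set against 10.1% of all genes.

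**Figure D2:**
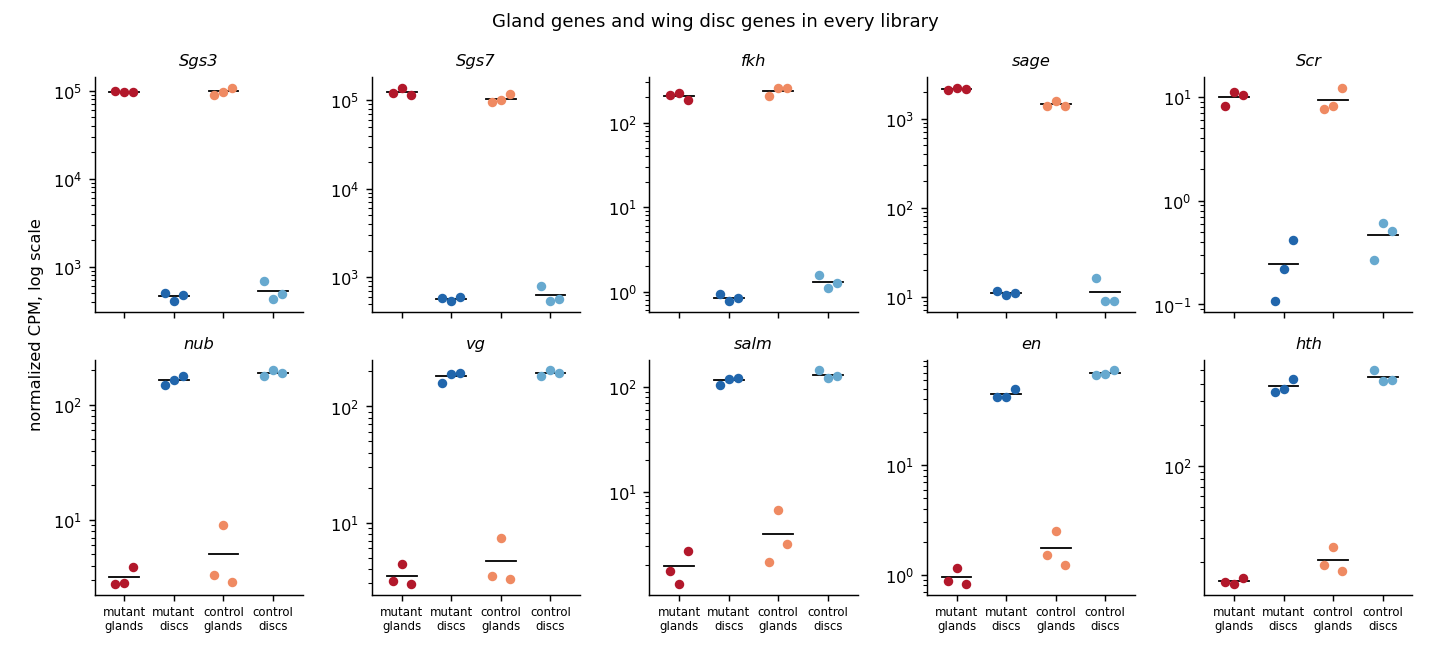
Normalized CPM on a log scale in each of the 12 libraries (points) with group means (bars) for gland genes and wing disc genes. Sgs3, Sgs7, fkh, sage and Scr lie higher in both gland groups and nub, vg, salm, en and hth in both disc groups, with no overlap between the organs in either genotype.

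The secretory machinery was higher in mutant glands as a group. Of 48 genes of the secretory pathway 45 were higher and 3 lower in mutant glands, beside 40.6 and 42.2% of all genes. Their median was 2.10, against 46 higher and 2 lower of 48 in control glands with a median of 1.98. With total-count scaling 31 were higher and 9 lower. The golgin gene Gmap averaged 805 ± 87 CPM in mutant glands and 22.4 ± 0.29 CPM in mutant discs (SD, n = 3), a difference of 5.17. Tango1, which organizes ER exit sites for large cargo, averaged 368 ± 28 CPM in mutant glands and 74.3 ± 4.0 CPM in mutant discs, a difference of 2.32. The signal peptidase gene Spase12 had 739 CPM in mutant glands and 38.0 CPM in mutant discs, but all of its exon bases lie in CG2006 as well. The gland prolyl hydroxylases PH4alphaSG1 and PH4alphaSG2 were higher in mutant glands by 7.51 and 7.53, and Pgant9, which glycosylates glue mucins, by 3.86. Of 9 gland secretion enzymes 6 were higher and 3 lower in mutant glands, the same counts as in controls. With total-count scaling 4 were higher and 3 lower in mutant glands. Summed over this list the level ranged from 1190 to 1569 CPM in mutant glands and from 2103 to 2567 CPM in control glands. In discs it ranged from 360 to 408 CPM in mutants and from 391 to 415 CPM in controls. None of the 9 changed its tissue difference between genotypes, too few genes to set against 10.1% of all genes.

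Wing patterning genes stayed on the disc side in the mutants. The POU gene nub, a marker of the wing pouch, had 2.77, 2.84 and 3.88 CPM in mutant glands and 150, 165 and 179 CPM in mutant discs. It had 3.29, 9.04 and 2.88 CPM in control glands and 179, 199 and 190 CPM in control discs. Organs did not overlap, and the difference of -5.70 ± 0.18 in mutants did not differ past the threshold from -5.22 in controls (change -0.43, adjusted p = 0.64). The wing selector vg averaged 3.49 ± 0.76 CPM in mutant glands and 181 ± 20 CPM in mutant discs (SD, n = 3), and the Dpp target salm averaged 1.92 ± 0.72 and 116 ± 9.1 CPM in the same order of organs. Of the patterning genes named here, nub, vg, salm, en, hh, wg and dpp were chosen once their values were known.

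The compartment and signalling genes showed the same. The posterior selector en averaged 0.954 ± 0.18 CPM in mutant glands and 44.6 ± 4.1 CPM in mutant discs, against 1.75 ± 0.67 CPM in control glands and 69.4 ± 3.5 CPM in control discs (SD, n = 3 each). The ligand genes hh, wg and dpp were lower in mutant glands by 5.14, 4.33 and 3.26. The protocadherin genes ft and ds and the kinase gene fj, which act together in planar polarity, were lower by 5.22, 5.40 and 5.46, and the homeobox gene mirr by 4.87. Of 62 wing patterning genes 57 were lower and 3 higher in mutant glands, where 42.2 and 40.6% of all genes were, with a median of -4.78. In controls 57 were lower and 2 higher, with a median of -4.60. For 61 of the 62 the organs' mutant libraries did not overlap, beside 85.6% of all genes. Their tissue difference changed between genotypes in 3 of the 62, beside 10.1% of all genes. With total-count scaling none of the 62 was higher in mutant glands.

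In glands these genes ranged from the shared level to well above it. The 46 wing patterning genes with at least 10000 counts in all discs together held a median of 4.78 counts in a mutant gland library and 3.52 in a control gland library per 1000 of those disc counts. The values ran from 1.44 to 201 in mutant and from 0.734 to 218 in control gland libraries.

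Muscle precursors attached to the disc were seen on the disc side as well. The mesoderm factor twi had 0.975, 0.904 and 0.907 CPM in mutant glands and 18.6, 23.5 and 28.1 CPM in mutant discs. Him, an inhibitor of muscle differentiation, averaged 0.137 ± 0.065 CPM in mutant glands and 9.17 ± 0.77 CPM in mutant discs (SD, n = 3). Of 10 myoblast genes 9 were lower in mutant glands, beside 42.2% of all genes. The 1 higher was the muscle factor Mef2, at 300 ± 63 CPM in mutant glands and 55.7 ± 6.2 CPM in mutant discs, against 275 ± 44 CPM in control glands and 50.7 ± 3.4 CPM in control discs. The FGF adaptor gene stumps had a larger difference in mutants (-3.19) than in controls (-0.96), a change of -2.20 (adjusted p = 0.00034). It had 4.90 CPM in mutant glands and 45.1 CPM in mutant discs, against 17.8 CPM in control glands and 35.8 CPM in control discs.

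Genes of dividing cells were among the strongest on the disc side. The mitotic cyclin gene CycB had 4.20, 4.11 and 3.88 CPM in mutant glands and 158, 176 and 147 CPM in mutant discs. It had 4.44, 8.20 and 4.07 CPM in control glands and 200, 180 and 197 CPM in control discs. The organs did not overlap, with a mutant difference of -5.29 ± 0.14 (adjusted p = 5.7e-08). Of 47 mitosis genes 45 were lower and 1 higher in mutant glands, beside 42.2 and 40.6% of all genes. Their median was -4.42 in mutants, against the same counts and a median of -4.09 in controls. The spindle checkpoint gene BubR1, at 2.97 CPM in mutant glands and 83.7 CPM in mutant discs, was among 4 whose difference was larger in mutants (change -0.74, adjusted p = 0.017).

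Replication genes had a smaller median difference than mitosis genes. Of 41 tested 38 were lower and 1 higher in mutant glands, beside 42.2 and 40.6% of all genes. Their median was -2.22 in mutants, and the control counts were the same with a median of -2.40. None changed its difference between genotypes, beside 10.1% of all genes. Mcm3, a subunit of the replicative helicase, averaged 8.38 ± 1.5 CPM in mutant glands and 75.7 ± 13 CPM in mutant discs, and Caf1-180, of the chromatin assembly factor, 13.9 ± 1.7 and 69.9 ± 4.1 CPM in the same order. Genes used in endocycles were also lower in glands. The S-phase cyclin gene CycE had 4.99, 7.36 and 4.58 CPM in mutant glands and 47.8, 56.8 and 54.1 CPM in mutant discs. Of the 8 endocycle genes tested 7 were lower, beside 42.2% of all genes. The growth regulator gene Myc was lower by 3.22, but 40.9% of its exon bases are shared with CG12535. The anaphase activator gene fzr drives the switch to endocycles and was chosen after its values were seen. It had 13.4 ± 1.5 CPM in mutant glands and 22.0 ± 1.8 CPM in mutant discs, against 22.5 ± 1.6 CPM in control glands and 24.0 ± 1.9 CPM in control discs, a change of -0.62 that did not pass (adjusted p = 0.053).

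**Figure D3:**
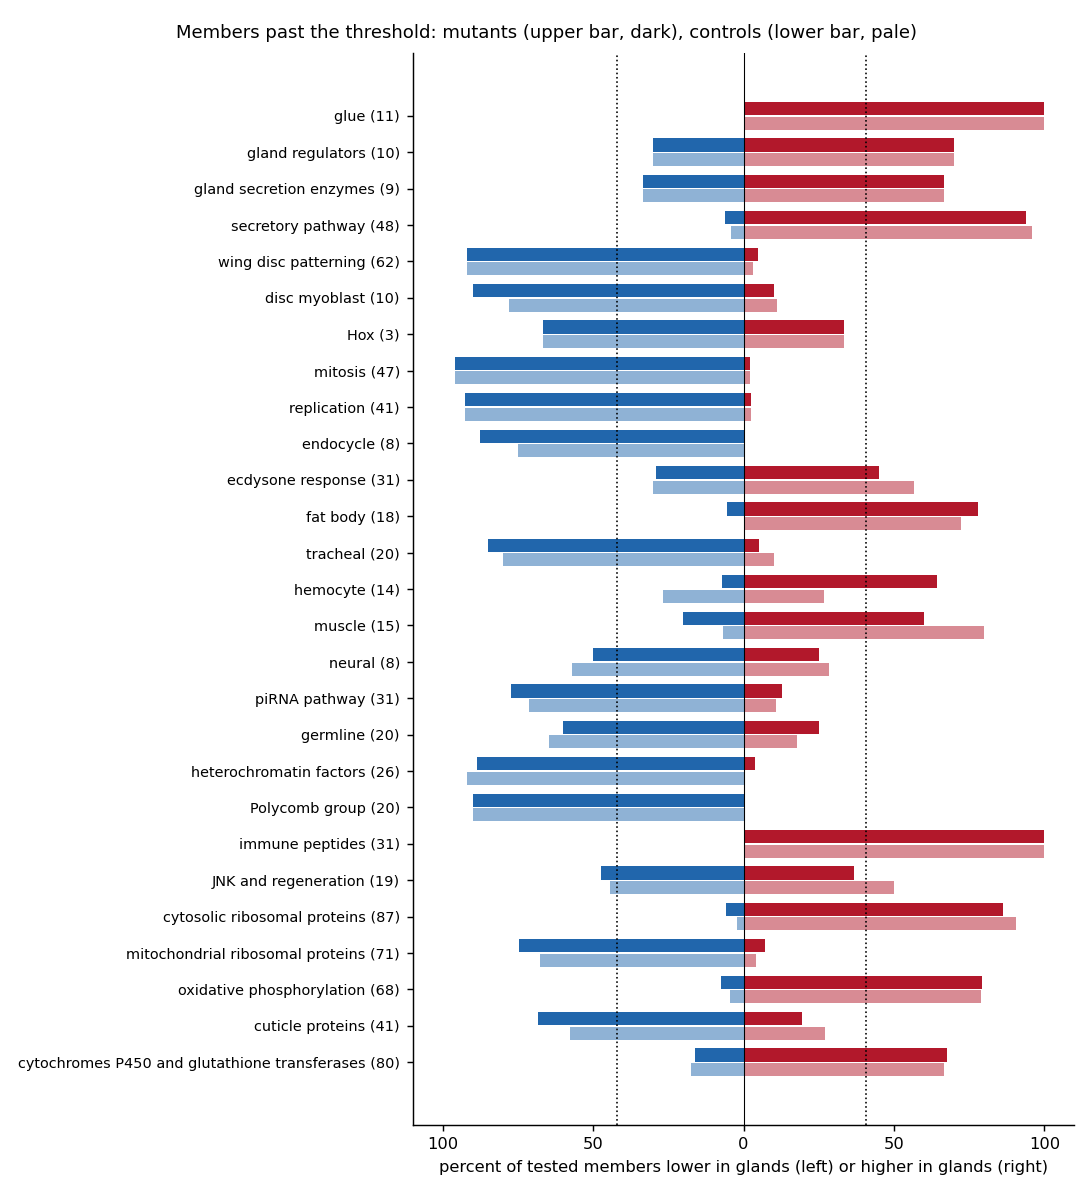
Percent of the tested members of each of 27 gene lists that were higher in glands (right, red) or lower in glands (left, blue), for mutants (upper, dark bar) and controls (lower, pale bar). Numbers in brackets are members tested in mutants, and dotted lines mark 40.6% higher and 42.2% lower among all genes in mutants. Bars of the glue, wing patterning, mitosis and replication lists are of similar length in both genotypes, while those of the hemocyte, muscle, ecdysone and JNK lists differ.

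Chromatin regulators were more abundant in the discs. Of 26 heterochromatin factors 23 were lower and 1 higher in mutant glands, with a median of -1.66. Of 20 Polycomb group genes 18 were lower and none higher, with a median of -0.89. Among all genes 42.2% were lower and 40.6% higher. The heterochromatin factor that was higher was Su(var)3-9. HP1a averaged 80.5 ± 20 CPM in mutant glands and 248 ± 20 CPM in mutant discs, against 79.7 ± 9.7 CPM in control glands and 262 ± 5.5 CPM in control discs (SD, n = 3 each). The SetDB1 cofactor gene wde averaged 62.7 ± 12 CPM in mutant glands and 163 ± 6.5 CPM in mutant discs, against 17.3 ± 1.6 CPM in control glands and 92.1 ± 1.7 CPM in control discs. Its tissue difference lay nearer to the glands by 1.03 in mutants (adjusted p = 0.0052). Both genes were chosen after their values were seen.

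Genes of the piRNA pathway, which silences transposons in the gonad, included several that were high in the mutant discs alone. The Tudor gene krimp (2R:16238103-16240722, minus strand) had 2.04, 2.18 and 1.61 CPM in mutant glands and 106.5, 104.8 and 102.5 CPM in mutant discs. It had 1.68, 2.93 and 1.13 CPM in control glands and 10.5, 5.65 and 8.05 CPM in control discs. The mutant discs stood above all other groups, and the change of -3.56 passed the threshold (adjusted p = 0.00017). The Tudor gene qin averaged 1.07 ± 0.28 CPM in mutant glands and 54.7 ± 4.9 CPM in mutant discs, against 1.06 ± 0.63 CPM in control glands and 3.42 ± 0.40 CPM in control discs, a change of -3.91. The gene moon (X:12072008-12072818, minus strand), which acts in transcription of piRNA clusters, had 1.52, 1.40 and 1.57 CPM in mutant glands and 34.2, 29.8 and 27.5 CPM in mutant discs. Its control levels were 0.306, 1.93 and 0.428 CPM in glands and 0.163, 0.0916 and 0.0892 CPM in discs.

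Across the list 24 of 31 piRNA genes were lower and 4 higher in mutant glands, with a median of -1.94. In controls 20 of 28 were lower and 3 higher, with a median of -1.99. Of 32 tested for a change 5 moved toward the discs and 2 toward the glands, beside 4.47 and 5.62% of all genes. The Argonaute gene piwi differed little, at 1.40 ± 0.18 CPM in mutant glands and 2.67 ± 0.42 CPM in mutant discs, and its call was lost without mutant disc library 2 (adjusted p = 0.056). Of 20 germline genes tested 12 were lower and 5 higher in mutant glands, beside 42.2 and 40.6% of all genes. With total-count scaling 17 were lower and 0 higher. The germline differentiation gene bam had 0.122, 0.499 and 0.0825 CPM in mutant glands and 19.6, 24.3 and 20.6 CPM in mutant discs. Its control levels were 0.382, 1.17 and 0.612 CPM in glands and 1.68, 3.42 and 2.52 CPM in discs, and the change was -4.58 (adjusted p = 0.0012), or -5.76 without mutant gland library 2. The germline helicase gene vas, a defining marker, was at 0.185 ± 0.063 CPM in mutant glands and 0.653 ± 0.29 CPM in mutant discs, and its call too was lost without mutant disc library 2 (adjusted p = 0.054). Of these genes piwi, vas and qin were chosen after their values were seen.

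Immune peptide genes had most of their counts in the glands. Summed over the 42 listed genes they reached 1154 to 1554 CPM in mutant glands and 20.4 to 24.9 CPM in mutant discs, against 455 to 976 CPM in control glands and 12.3 to 13.4 CPM in control discs. The antifungal peptide gene Drs had 411.96, 265 and 398 CPM in mutant glands and 1.21, 1.18 and 1.04 CPM in mutant discs. It had 6.35, 9.88 and 21.0 CPM in control glands and 1.08, 1.28 and 0.892 CPM in control discs. The organs did not overlap in either genotype, and the difference grew by 4.74 in mutants (adjusted p = 0.00012), or by 5.39 without control gland library 3. The bomanin gene BomS1, a short-peptide target of Toll signalling, had 157, 116 and 131 CPM in mutant glands and 0.644, 0.372 and 0.624 CPM in mutant discs, against 1.38, 3.93 and 1.38 CPM in control glands and 1.35, 0.366 and 0.424 CPM in control discs. Its change was 6.40 (adjusted p = 9.5e-05), 7.01 without control gland library 2 and 5.51 without control disc library 1.

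Of the 42 listed genes 31 passed the filter on low counts in mutants and 25 in controls, and 9 had no count in any mutant disc library. All those tested were higher in glands, beside 40.6% of all genes in mutants and 39.2% in controls, but genes this low in discs can pass the filter through the glands alone, so the count gives no support for the direction. Of 34 tested for a change 7 grew and 2 shrank in mutants, beside 5.62 and 4.47% of all genes. DptB, an antibacterial peptide gene usually linked to Imd signalling, was 1 of those that shrank. It had 2.68, 1.75 and 2.60 CPM in mutant glands and 0.107, 0.263 and 0.156 CPM in mutant discs, against 69.5, 50.0 and 153 CPM in control glands and 0.217, 0.0610 and 0.245 CPM in control discs, a change of -5.27 (adjusted p = 0.0031), or -4.66 without control gland library 3. It was chosen after its values were seen.

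Markers of other cell types differed in direction, and those of the fat body were on the gland side. Of 18 fat body genes tested 14 were higher and 1 lower in mutant glands, beside 40.6 and 42.2% of all genes. Their median was 6.40, and Lsp2, a larval serum protein gene, is given as an example chosen after its values were seen. Lsp2 had 14424, 12451 and 18900 CPM in mutant glands and 112, 66.0 and 61.6 CPM in mutant discs, against 7609, 6549 and 9774 CPM in control glands and 89.4, 54.8 and 61.8 CPM in control discs. Organs did not overlap, and 84.6% of its exon bases are shared with asRNA:CR11538. Summed over the 21 listed genes the level ranged from 45027 to 55796 CPM in mutant glands and from 610 to 929 CPM in mutant discs, against 21216 to 31778 CPM in control glands and 506 to 665 CPM in control discs. The tissue difference grew in 4 of 18 members, among them the lipid droplet gene Lsd-1 (change 1.67, adjusted p = 0.0015). Immune peptides and fat body markers were thus both highest in the mutant glands. The part of adhering fat body in the gland results was not tested.

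Of 14 hemocyte genes 9 were higher and 1 lower in mutant glands, beside 40.6 and 42.2% of all genes. Their median was 1.27, and in control glands 4 of 15 were higher and 4 lower. With total-count scaling 2 were higher and 5 lower in mutants, so this direction turns with the scaling. The hemocyte marker Hml stood at 2.09 ± 1.1 CPM in mutant glands and 2.22 ± 0.22 CPM in mutant discs and the GATA factor gene srp at 28.6 ± 12 and 0.757 ± 0.68 CPM in the same order. The difference of srp was 5.26, or 6.30 without mutant disc library 3. Summed hemocyte markers ranged from 535 to 798 CPM in mutant glands and from 278 to 383 CPM in mutant discs, against 376 to 511 CPM in control glands and 262 to 314 CPM in control discs.

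Tracheal genes were on the disc side, with 17 of 20 lower and 1 higher in mutant glands, beside 42.2 and 40.6% of all genes. Among the lower were verm and serp, chitin deacetylases of the tracheal lumen, at -4.19 and -3.89. The tracheal FGF receptor gene btl was low in both, at 0.768 ± 0.27 CPM in mutant glands and 7.25 ± 0.80 CPM in mutant discs. Of 15 muscle genes 9 were higher and 3 lower in mutant glands, beside 40.6 and 42.2% of all genes. With total-count scaling 6 were higher and 6 lower. Hml, btl and Mhc are defining markers that the rule did not name. The muscle myosin gene Mhc stood at 3.47 ± 1.2 CPM in mutant glands and 0.405 ± 0.47 CPM in mutant discs. Its difference of 3.07 was 4.55 without mutant disc library 2. Of 8 neural genes tested 4 were lower and 2 higher in mutant glands, beside 42.2 and 40.6% of all genes.

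Single neural genes depended on genotype. The calcium channel gene cac had 0.914, 0.686 and 0.412 CPM in mutant glands and 40.2, 29.1 and 36.3 CPM in mutant discs, against 0.688, 0.670 and 0.887 CPM in control glands and 1.71, 1.31 and 1.27 CPM in control discs. Its change was -4.80 (adjusted p = 1.2e-05). The neuronal RNA-binding gene elav had 15.2, 11.6 and 10.8 CPM in mutant glands and 15.0, 14.2 and 16.6 CPM in mutant discs, which overlap. In controls it had 0.765, 3.26 and 1.96 CPM in glands and 14.8, 13.6 and 10.6 CPM in discs, which do not. Its change was 2.43 (adjusted p = 0.0034), with 27.9% of its exon bases shared with lncRNA:enrr. It was chosen after its values were seen.

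Ribosomal and respiratory genes give a direction that the scaling decides. Of 87 cytosolic ribosomal protein genes 75 were higher and 5 lower in mutant glands under TMM factors, with a median of 1.07, and 1 was higher and 62 lower under total-count scaling, with a median of -0.45. RpLP1 averaged 4563 ± 558 CPM in mutant glands and 1215 ± 53 CPM in mutant discs (SD, n = 3). For oxidative phosphorylation 54 of 68 were higher and 5 lower under TMM factors, and 1 higher and 46 lower under total-count scaling. Mitochondrial ribosomal protein genes were lower in mutant glands under both, with 53 of 71 lower under TMM factors and a median of -1.02. Relative to the median of all genes, these lists kept their places: above it for cytosolic ribosomal and respiratory genes and below it for mitochondrial ribosomal genes. ATPsynepsilonL, listed as a subunit of ATP synthase, was unlike the rest. It had 1.07, 0.873 and 1.24 CPM in mutant glands and 60.3, 68.3 and 56.8 CPM in mutant discs, against 0.306, 2.01 and 0.367 CPM in control glands and 1.08, 1.34 and 0.825 CPM in control discs, a change of -5.38, or -4.26 without control gland library 2.

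Detoxification genes were mostly higher in mutant glands, with 54 of 80 cytochrome P450 and glutathione transferase genes higher and 13 lower. Among all genes 40.6% were higher and 42.2% lower, and the median of the list was 2.50. In controls 46 of 69 were higher and 12 lower, with a median of 1.51. Cyp6g1, known for insecticide resistance, averaged 144 ± 14 CPM in mutant glands and 1.45 ± 0.14 CPM in mutant discs, against 65.1 ± 13 CPM in control glands and 1.01 ± 0.51 CPM in control discs. Of 83 tested for a change 14 grew toward the glands and 5 toward the discs, beside 5.62 and 4.47% of all genes. By number of genes the cuticle list was on the disc side, with 28 of 41 lower and 8 higher in mutant glands. Among all genes 42.2% were lower and 40.6% higher, and only these 41 of the 124 listed cuticle genes passed the filter on low counts. The summed level of the list was on the gland side, at 693 to 1401 CPM in mutant glands and 338 to 392 CPM in mutant discs.

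Of 31 ecdysone-response genes 14 were higher and 9 lower in mutant glands, beside 40.6 and 42.2% of all genes, and 17 and 9 of 30 in control glands. With total-count scaling 8 were higher and 17 lower in mutant glands, so this direction turns with the scaling. The ETS factor gene Eip74EF averaged 558 ± 180 CPM in mutant glands and 61.3 ± 5.6 CPM in mutant discs. The ecdysone-inducible genes ImpE1 and ImpE2 were lower in mutant glands by 5.02 and 5.41, with ImpE2 at 43.9 ± 3.8 CPM in mutant glands and 1878 ± 617 CPM in mutant discs. Of 19 genes of JNK signalling and regeneration 7 were higher and 9 lower in mutant glands, close to the shares of all genes. With total-count scaling 0 were higher and 15 lower. The cytokine gene upd1 had 0.0203 ± 0.035 CPM in mutant glands and 8.46 ± 1.4 CPM in mutant discs, against 0.610 ± 0.53 CPM in control glands and 7.71 ± 0.86 CPM in control discs. The cell death gene rpr, chosen after its values were seen, was lower in mutant glands, at 6.73, 2.90 and 13.4 CPM against 15.5, 22.0 and 20.4 CPM in mutant discs. Control glands had 86.4, 23.4 and 45.4 CPM and control discs 11.8, 18.1 and 15.4 CPM, so its direction turned (change -3.12, adjusted p = 0.014). The mutant difference of -1.33 was of similar size but did not pass without mutant gland library 1 (-1.24, adjusted p = 0.073), mutant disc library 2 (-1.21, adjusted p = 0.073) or mutant disc library 3 (-1.28, adjusted p = 0.061).

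Among genes with a count in every library and at least 50 CPM in a group, alpha-Est1, a carboxylesterase gene, had the largest difference in favour of mutant glands, 8.61 ± 0.40. It had 769, 837 and 1578 CPM in mutant glands and 2.20, 2.54 and 3.46 CPM in mutant discs, against 19.4, 28.6 and 21.0 CPM in control glands and 4.71, 1.95 and 2.63 CPM in control discs. The difference grew by 5.71 in mutants (adjusted p = 2.4e-05). Others of the largest, CG42823, CG13946, CG8087, CG13560, Eig71Eg and CG12506, lay between 8.33 and 8.42, and single gland libraries carried CG42823 (7.18 without mutant gland library 3), CG13946 (7.32 without mutant gland library 1) and CG12506 (7.52 without mutant gland library 1). CG33272 lies beside the glue genes on 3L and had 1 count in all 6 disc libraries together, with 90.4, 5.55 and 133 CPM in mutant glands. It was 1 of only 3 abundant gland genes whose disc counts were under 0.5% of its gland counts.

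On the disc side the largest differences were of patterning and of mutant disc genes. The homeobox gene al averaged 0.780 ± 0.21 CPM in mutant glands and 53.0 ± 10 CPM in mutant discs, and the POU gene pdm2, a paralogue of nub, 0.791 ± 0.24 and 52.5 ± 7.7 CPM in the same order. The elongation factor gene eEF1alpha2 was lower by 6.20 and the cuticle gene Cpr64Aa by 6.51. CG3251, CR43086 and CG43088, with 51.5 to 57.7 CPM in mutant discs on average, had 0.106 to 0.301 CPM in control discs.

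Genes whose tissue difference depended most on genotype fell into a few patterns. In the first, only the mutant discs were high. CG34323 (X:12070437-12071263, plus strand) had 0.426, 0.187 and 0.330 CPM in mutant glands and 26.1, 29.0 and 27.4 CPM in mutant discs. Its control glands had 6, 18 and 14 counts and its control discs 1, 2 and 0 counts. The fitted change of -11.00 thus rests on control disc counts below the floor of 3 counts in a library and on few control gland counts. It was -10.31 without control gland library 2 and -11.94 without control disc library 2. CG34323 and moon are neighbours on the X chromosome. CG43088, CG18605, lncRNA:CR43961, CG3251, CG14357, CG42300 and CR43086 had the same pattern, with changes from -7.61 to -9.19 and mutant disc means of 11.2 to 57.7 CPM.

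In the second pattern the mutant glands were high. CG10140 had 31.9, 32.4 and 60.8 CPM in mutant glands and 2, 2 and 4 counts in mutant discs, against 1.07, 1.005 and 0.918 CPM in control glands and 12, 6 and 6 counts in control discs, a change of 7.02. Jhbp12, named as a juvenile hormone binding protein, had 24.9, 22.0 and 36.9 CPM in mutant glands and 0.429, 0.219 and 0.208 CPM in mutant discs, against 1.38, 1.005 and 1.01 CPM in control glands and 1.08, 1.86 and 1.49 CPM in control discs. Its change was 7.02 as well (adjusted p = 3.1e-06). CG3635 followed with 24.9 ± 4.4 CPM in mutant glands and at most 0.229 CPM in any other group. CG11155, a glutamate receptor family gene on chromosome 4 chosen after its values were seen, had 237, 324 and 292 CPM in mutant glands and 2.60, 2.56 and 2.37 CPM in mutant discs. Its control levels were 8.49, 10.9 and 6.27 CPM in glands and 2.33, 2.17 and 1.76 CPM in discs (change 4.80, adjusted p = 1.5e-06).

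In the third pattern mutant discs lost a gene that control discs expressed. CG6912, asRNA:CR45600 and CG3984 lie side by side between 15135138 and 15140121 on 3R, and CG3984 lies wholly within the antisense gene, so their reads cannot be told apart without strand. CG3984 had 11.8, 10.8 and 5.90 CPM in mutant glands and 0.402, 0.153 and 0.286 CPM in mutant discs, against 6.04, 5.02 and 5.63 CPM in control glands and 21.0, 21.3 and 20.3 CPM in control discs. All 3 genes were higher in mutant glands than mutant discs and lower in control glands than control discs. For CG6912 the change was 8.29, or 9.36 without mutant disc library 3. CHKov1, chosen after its values were seen, had 87.3, 100 and 74.2 CPM in mutant glands and 1.05, 1.01 and 0.962 CPM in mutant discs, against 86.7, 78.6 and 91.9 CPM in control glands and 47.3, 55.4 and 63.0 CPM in control discs (change 5.80, adjusted p = 4.2e-08).

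In the fourth pattern mutant glands lost a gene that control glands expressed. These genes were chosen after their values were seen. Jig had 5.03, 3.55 and 3.71 CPM in mutant glands and 1.74, 1.05 and 1.20 CPM in mutant discs, against 492, 452 and 1030 CPM in control glands and 2.25, 1.04 and 1.63 CPM in control discs, a change of -7.01 (adjusted p = 6.2e-06). The glutamate receptor gene GluRIIC averaged 0.831 ± 0.36 CPM in mutant glands and 0.132 ± 0.055 CPM in mutant discs, against 111 ± 35 CPM in control glands and 0.404 ± 0.12 CPM in control discs. The gene phu averaged 0.759 ± 0.20 CPM in mutant glands and 0.134 ± 0.097 CPM in mutant discs, against 109 ± 30 CPM in control glands and 0.338 ± 0.11 CPM in control discs. Levels of all 3 genes in mutant glands were far below those in control glands, and none of their groups overlapped between these glands.

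Genes that turned direction were few. Of the 79 genes past the threshold in both genotypes with opposite directions, 56 reached 10 CPM in a group, and 34 of these were higher and 22 lower in mutant glands. Dscam4, a cell adhesion gene of the immunoglobulin family, had 12.2, 21.9 and 12.5 CPM in mutant glands and 87.3, 88.7 and 90.9 CPM in mutant discs, against 1.84, 4.52 and 3.64 CPM in control glands and 0.759, 0.153 and 0.535 CPM in control discs. Both mutant groups were above both control groups, and the discs by more (change -5.27, adjusted p = 7.3e-05). CG14961 went the other way, with 4.47 ± 0.46 CPM in mutant glands and 0.748 ± 0.35 CPM in mutant discs, against 2.90 ± 0.77 CPM in control glands and 11.5 ± 2.6 CPM in control discs, a change of 4.54.

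**Figure D4:**
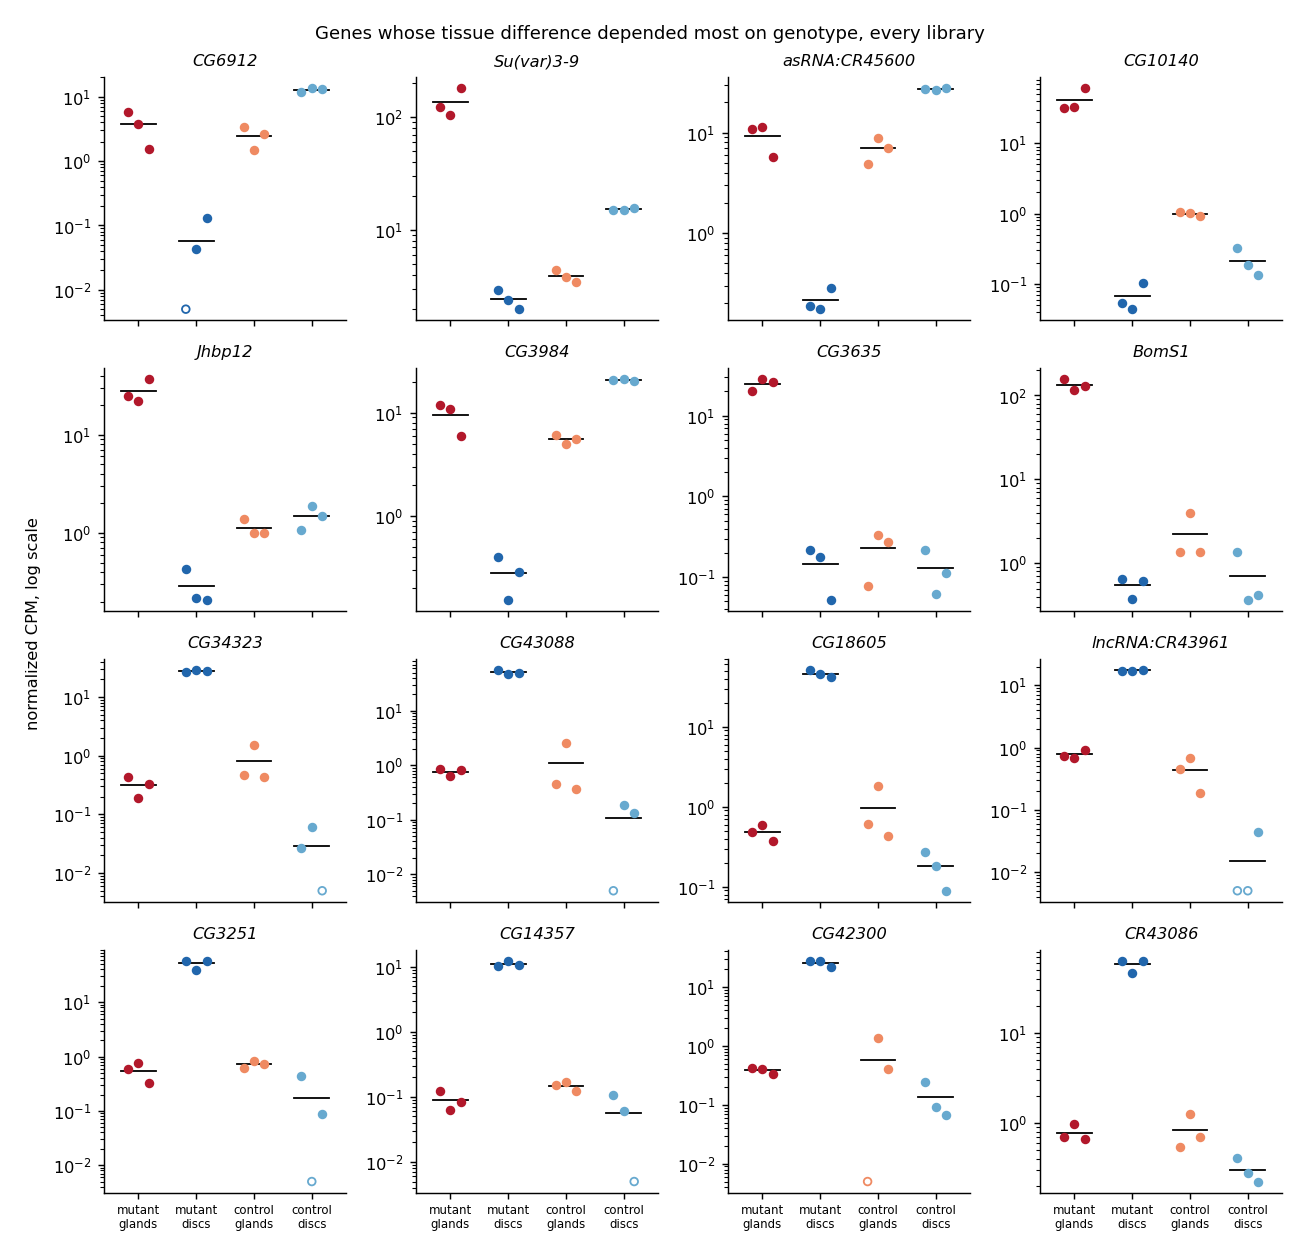
Normalized CPM on a log scale in each of the 12 libraries (points; open points at 0.005 stand for 0 counts) with group means (bars), for the 8 genes with the largest gland-ward change of the tissue difference in mutants (upper rows) and the 8 with the largest disc-ward change (lower rows). In the lower rows the mutant discs stand at 11.2 to 57.7 CPM on average and every other group near or below 1 CPM.

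Transposable elements together took a larger share in the mutant discs than in the mutant glands. The deposited element table held 186 rows of estimated counts, with internal and terminal repeat parts of an LTR element in separate rows. As CPM of gene counts without scaling factors, the elements together took 6615 ± 839 in mutant glands and 32655 ± 1928 in mutant discs, against 3768 ± 261 in control glands and 6666 ± 465 in control discs (SD, n = 3 each). The mutant discs thus held 4.94 times the share of the mutant glands, with no overlap, and an exact permutation test gave p = 0.1, the smallest that 3 against 3 libraries allow. With gene counts scaled by TMM factors the totals were 11623 ± 1547 in mutant glands and 20261 ± 1351 in mutant discs, against 5750 ± 666 in control glands and 4025 ± 249 in control discs. The direction in mutants held under both scalings, and the direction in controls turned.

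Of 170 element rows tested in mutants 131 passed (77.1%), 40 higher (23.5%) and 91 lower (53.5%) in mutant glands, with a median of -0.97. In 136 of the rows tested (80%) the organs' libraries did not overlap. In controls 71 of 148 passed (48%), 46 higher (31.1%) and 25 lower (16.9%) in control glands, with a median of 0.30. The change between genotypes passed in 97 of 168 rows (57.7%), 79 of them toward the discs (47%) and 18 toward the glands (10.7%). Of 56 rows past the threshold in both genotypes 37 kept their direction, 17 were higher in control glands and lower in mutant glands, and 2 the reverse. The fit of the mutant elements gave all rows the same spread at a given level, so their p-values are small. Without scaling factors on the gene counts, a setting chosen after seeing the data, 16 rows were higher and 136 lower in mutant glands, and 10 higher and 82 lower in control glands. Of the 85 rows then past the threshold in both genotypes 78 kept their direction, 5 were higher in control glands and lower in mutant glands, and 2 the reverse. The change between genotypes passed in 105 rows, 88 of them toward the discs. With each library's element total in place of gene counts, 68 rows were higher and 66 lower in mutant glands.

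**Figure D5:**
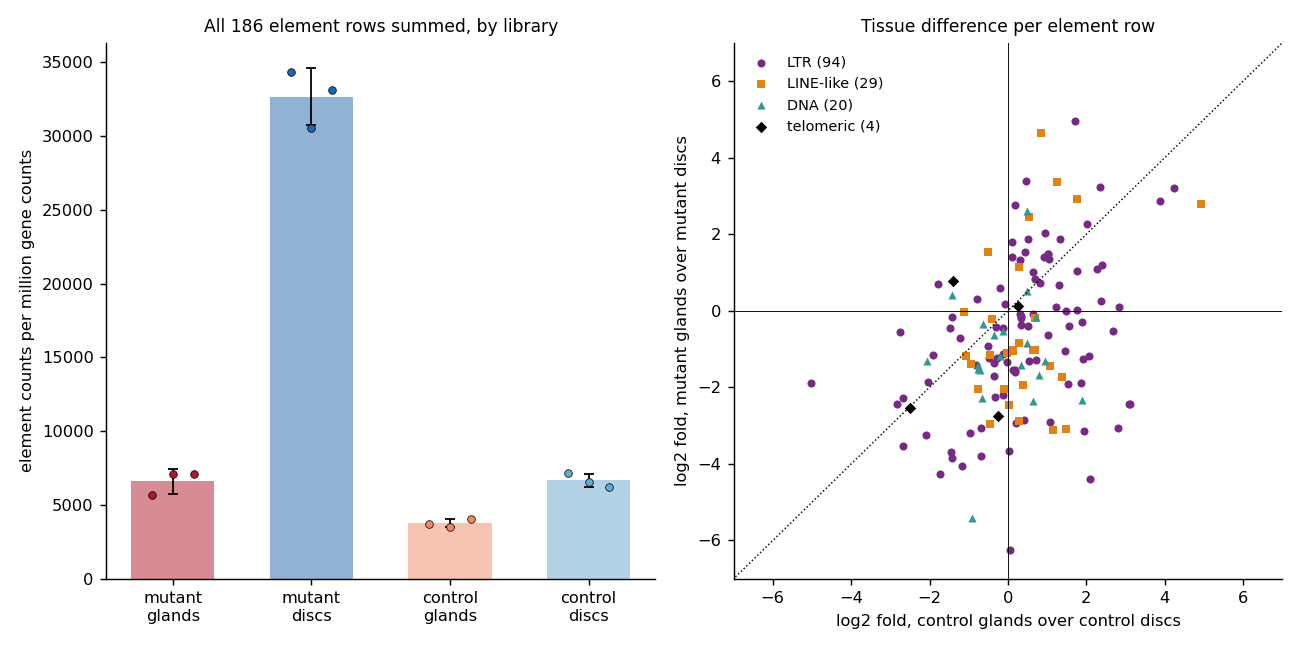
Left, summed element CPM of gene counts, without scaling factors, in each library (points) with group means (bars) and SD (whiskers). Right, log2 fold of mutant glands over mutant discs against that of control glands over control discs for the 147 element rows tested in both genotypes, by class, with equal differences on the dotted line. The mutant discs stand at 30531 to 34295, above all other libraries, and many rows to the right of 0 lie below 0 on the vertical axis under TMM factors.

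The direction of a class sum held under both scalings for LTR rows in mutants, and turned with the scaling for LINE-like rows in mutants and LTR rows in controls. Under TMM factors LTR rows together, most of which copy themselves like retroviruses, reached 7733 ± 786 CPM in mutant glands and 17955 ± 1251 CPM in mutant discs, and non-LTR retrotransposons of the LINE kind 3193 ± 771 CPM in mutant glands and 1418 ± 175 CPM in mutant discs. On the same scale LTR rows of controls reached 3406 ± 174 CPM in glands and 2705 ± 306 CPM in discs, and LINE-like rows 1581 ± 512 CPM in glands and 595 ± 14.5 CPM in discs. Without scaling factors LTR rows reached 4406 ± 494 CPM in mutant glands and 28938 ± 1785 CPM in mutant discs, against 2237 ± 43 CPM in control glands and 4482 ± 542 CPM in control discs. LINE-like rows then reached 1813 ± 399 CPM in mutant glands and 2287 ± 288 CPM in mutant discs, against 1030 ± 290 CPM in control glands and 986 ± 27 CPM in control discs.

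Under TMM factors 19 of 31 LINE-like rows were lower and 7 higher in mutant glands. DOC6_DM was among the 7, with 569, 776 and 454 CPM in mutant glands and 21.4, 22.5 and 28.5 CPM in mutant discs, against 85.4, 70.1 and 63.5 CPM in control glands and 46.6, 38.2 and 37.7 CPM in control discs (change 3.80, adjusted p = 3.5e-08). It was higher in mutant glands without scaling factors too, by 3.14.

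LTR elements led the disc side. Gypsy1-I_DM had 6.21, 7.22 and 7.91 CPM in mutant glands and 532, 517 and 586 CPM in mutant discs, against 6.58, 13.4 and 7.52 CPM in control glands and 9.81, 8.27 and 8.25 CPM in control discs. Its mutant difference was -6.26 ± 0.31 and the change -6.31 (adjusted p = 1.4e-10). Gland libraries of both genotypes held 1.28 to 3.67 of its counts per 1000 in all discs together, a range that takes in the shared level.

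CIRCE had 17.3, 24.6 and 33.7 CPM in mutant glands and 480, 528 and 566 CPM in mutant discs, against 7.27, 15.9 and 8.93 CPM in control glands and 2.60, 2.44 and 2.41 CPM in control discs. DM1731_I, the most abundant row of the mutant discs, had 917, 1153 and 979 CPM in mutant glands and 4567, 3306 and 3601 CPM in mutant discs, against 59.9, 129 and 54.0 CPM in control glands and 19.0, 15.5 and 48.9 CPM in control discs. Under TMM factors both were among the rows higher in control glands and lower in mutant glands. Without scaling factors neither passed in controls, at 0.78 for CIRCE (adjusted p = 0.057) and 0.23 for DM1731_I (adjusted p = 0.68), and both stayed lower in mutant glands. In control glands CIRCE held 1.48 to 4.56 and DM1731_I 1.69 to 3.81 counts per 1000 in all discs together. These ranges overlap the shared level and run above it. The part of the shared level in the turn of direction was not tested.

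Other LTR rows differed in direction. GTWIN_I had 33.9, 10.1 and 24.0 CPM in mutant glands and 0.912, 0.569 and 0.702 CPM in mutant discs, and below 1 CPM in every control library. Its change was 3.27, or 2.60 without control disc library 1. The terminal repeat row GTWIN_LTR went the other way. Without scaling factors the mutant difference was -1.31 for GTWIN_LTR and 3.46 for GTWIN_I. ROO_I had 465, 491 and 623 CPM in mutant glands and 111, 103 and 112 CPM in mutant discs, against 515, 241 and 522 CPM in control glands and 126, 99.4 and 89.2 CPM in control discs, a change of 0.25 that did not pass (adjusted p = 0.58). COPIA_DM_I, the most abundant row over all libraries, had 2587, 3185 and 2722 CPM in mutant glands and 3721, 2831 and 3135 CPM in mutant discs, which overlap (adjusted p = 0.40), and it was lower in mutant glands by 1.69 without scaling factors. INVADER1_I was lower in mutant than in control discs, with 1.52, 2.74 and 2.56 CPM in mutant glands and 10.6, 8.23 and 6.16 CPM in mutant discs, against 1.15, 1.59 and 1.41 CPM in control glands and 44.1, 47.5 and 42.8 CPM in control discs.

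The telomeric retrotransposons, which maintain Drosophila chromosome ends, differed among themselves. HETA had 74.9, 119 and 121 CPM in mutant glands and 66.4, 60.2 and 57.0 CPM in mutant discs, against 8.93, 10.1 and 7.16 CPM in control glands and 16.9, 19.8 and 32.8 CPM in control discs, with a change of 2.19 (adjusted p = 9.1e-05). Without scaling factors HETA was lower in mutant glands (-0.72), so that its direction in mutants turns with the scaling, and the change was 2.02. TAHRE had 7.83, 14.0 and 11.6 CPM in mutant glands and 73.5, 68.6 and 81.1 CPM in mutant discs, and 6.14 to 9.44 CPM in all control libraries. TART_B1 overlapped between the mutant organs, at 141, 119 and 183 CPM in mutant glands and 145, 102 and 157 CPM in mutant discs, and stood at 381 to 557 CPM in the controls. TART-A had 21.8, 34.5 and 16.7 CPM in mutant glands and 246, 100.1 and 76.7 CPM in mutant discs, against 7.73, 4.02 and 2.78 CPM in control glands and 5.77, 5.77 and 69.6 CPM in control discs. It differed by -2.53 in mutants, or -1.86 without mutant disc library 1.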

How the data were processed

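RNA-seq of salivary glands and wing discs gave, per library, 1 table of gene counts and 1 table of transposable element values. Per the submitters' processing notes, the authors used cutadapt, HISAT2 and featureCounts with the BDGP6 build (dm6), and the deposited gene counts are whole reads per gene, with no normalization. The deposited element values are estimated counts, which need not be whole. Only the names of those tables point to SalmonTE, and neither the element reference nor the versions of these tools were stated. The kit is not stated to keep strand, so overlapping and antisense genes cannot be told apart.

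The 201 estimated counts that were not whole in the libraries used were rounded. Genes and elements were filtered with filterByExpr and tested with edgeR 4.0.16 in R 4.3.3 (quasi-likelihood test, TMM factors, Benjamini-Hochberg adjustment, threshold 0.05). Elements were scaled by the gene library sizes. Glands were compared with discs among the 6 mutant libraries and, separately, the 6 control libraries, and the change between genotypes is the interaction over all 12. SE is the unshrunken log2 difference divided by the square root of F. The fits were tested on simulated data. Gene positions and overlaps are from Ensembl release 115, which had models for 17710 of 17807 gene IDs. The floor of 3 counts covers counting error only.

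The members and the 27 gene lists were chosen with earlier results of these data known. Genes named by rule were the targeted genes, the glue genes tested, the 8 largest differences in each direction with at least 50 CPM and no overlap, up to 5 genes of lowest p per list, the 8 largest changes in each direction and 6 genes of opposite direction with at least 10 CPM, and the 5 most abundant genes per kilobase in each mutant organ, 1 of which is not reported here. Elements were named by the same kind of rule. Others are said to be chosen after their values were seen. Alternatives were DESeq2 1.42.0, limma 3.58.1 (voom, also with weights by group), other scalings and filters, a fold minimum, the replicate block and each library left out. Total-count scaling was added after seeing the data, for genes, elements and element classes. No sequences are shown.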

Additional observations from a re-analysis of the deposited data

Results flagged for a closer look

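The results here were picked out because the tissue difference in mutants differed from that in controls by the interaction test of edgeR over all 12 libraries. All values are that change on the log2 scale, and a positive one means a difference further toward the glands in mutants. Among the named genes the changes toward the glands were 8.29 for CG6912, 7.77 for Su(var)3-9, 7.39 for asRNA:CR45600, 7.02 for CG10140, 7.02 for Jhbp12, 7.001 for CG3984, 6.504 for CG3635, 6.40 for BomS1 and 4.54 for CG14961. CG6912, asRNA:CR45600 and CG3984 are neighbours on 3R, the arm that also carries Su(var)3-9.

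Changes toward the discs were -11.00 for CG34323, -9.19 for CG43088, -8.78 for CG18605, -8.65 for lncRNA:CR43961, -8.54 for CG3251, -8.24 for CG14357, -7.98 for CG42300, -7.61 for CR43086 and -5.27 for Dscam4. Except for Dscam4 these sizes rest on 0 to 16 counts per control disc library. Without single control libraries they reached -10.30 for CG3251 (control disc library 1), -7.95 for CG43088 (control gland library 2), -8.0015 for CG18605 (control gland library 2), -11.10 for lncRNA:CR43961 (control disc library 3), -7.63 for CG14357 (control disc library 3) and -7.04 for CG42300 (control gland library 2).

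Among element rows the changes toward the glands were 3.80 for DOC6_DM, 3.27 for GTWIN_I, 3.14 for INVADER1_I and 2.91 for DM297_LTR. The other row of the same element did not always follow. Without scaling factors the edgeR change was -1.08 for GTWIN_LTR (adjusted p = 0.11) and 3.09 for GTWIN_I. It was 0.40 for DM297_I (adjusted p = 0.32) and 2.76 for DM297_LTR. INVADER1_LTR followed, at 2.03 beside 2.98 for INVADER1_I. Under TMM factors the changes toward the discs were -6.48 for CIRCE, -6.31 for Gypsy1-I_DM, -5.88 for IDEFIX_LTR and -5.55 for BLOOD_LTR.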

How the results depend on the processing

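Total-count scaling, chosen after seeing the data, gave 1897 genes higher and 6775 lower in mutant glands, 1807 higher and 6313 lower in control glands, and 0 wing patterning genes higher in mutant glands. It reversed the sign of Fer1HCH (-0.24), crq (-0.25), Zasp52 (-0.037), RpL29 (-0.0060), RpL36A (-0.041), ND-15 (-0.22), mt:lrRNA (-0.038), RpL41 (-1.05), eEF1alpha1 (-0.080) and RpL27A (-0.27). For elements it gave 16 rows higher in mutant glands and 10 higher and 82 lower in control glands. It also turned HETA (-0.72), TART_B1 (-1.37) and MDG1_I (-1.32) in mutants, the LINE-like sum in mutants (-0.34), and the LTR (-1.003) and telomeric (-1.20) sums in controls. DESeq2 called 1574 genes for the change between genotypes, 753 toward the discs. Leaving out 1 library gave 662 to 1366 such genes, 354 to 744 toward the glands and 295 to 622 toward the discs. With element totals as library size 68 rows were higher in mutant glands, 30 higher and 49 lower in control glands, and 57 and 42 changed toward glands and discs. The sign turned for COPIA_DM_I in mutants (0.63) and for the changes of ACCORD_I (0.22), TART_B1 (1.20) and COPIA_DM_I (0.78). Gland-enriched genes kept were 97.4% at 4-fold and 99.4% at 32-fold, and disc-enriched genes 97.8% at 4-fold and 97.5 to 98.8% with 1 library left out. The cause of these shifts was not tested beyond the settings themselves.

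Replicate numbers were not used as pairs in the main tests. Same-number deviations of glands and discs correlated at 0.172, 0.079 and 0.208 in mutants and -0.051, 0.011 and -0.105 in controls. In mutants each gland library correlated best with the disc library of its own number, a hint of pairing from the data only. With the replicate block 8090 genes passed in mutants, 7215 in controls and 1050 for the change between genotypes. Depth limits low genes: 3 counts are the floor in a library.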

Other observations

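By chromosome arm, the tissue difference was similar in both genotypes. Genes on the X chromosome had a median log2 difference of -0.26 in mutants (1621 genes tested) and -0.25 in controls (1548 genes), and genes on 2L a median of 0.12 in mutants and 0.09 in controls. On chromosome 4, a main site of SetDB1 action, 29 of 85 genes were higher and 38 lower in mutant glands than in mutant discs, against 31 higher and 31 lower of 82 in controls. Among all genes 40.6% were higher and 42.2% lower in mutants, and 39.2 and 41.1% in controls. Of 90 chromosome 4 genes tested for a change between genotypes 7 moved toward the glands and 7 toward the discs (15.6%, beside 10.1% of all genes).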
